A study of Mus musculus with 9 samples.

Results

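The basement membrane genes described here are the collagen IV genes Col4a1 and Col4a2, the nidogens Nid1 and Nid2, and the laminin chains Lama3, Lama5, Lamb1, Lamb3 and Lamc1. Their regions of open chromatin were taken from a table of 75936 ATAC-seq peaks in D2A1-d, a breast carcinoma line from mouse. A peak belonged to a gene when its centre lay inside the gene, and otherwise when that gene had the nearest protein-coding gene end within 50 kb. This gave 94 peaks: 18 of Col4a1, 16 of Col4a2, 6 of Nid1, 5 of Nid2, 11 of Lama3, 15 of Lama5, 7 of Lamb1, 6 of Lamb3 and 10 of Lamc1. An assigned gene is the nearest by this rule and not a tested target.

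ATAC-seq measures chromatin accessibility, since a transposase inserts sequencing adapters where DNA is open. Cells had been transduced with a non-targeting control hairpin (NTC, labelled WT) or with 1 of 2 hairpins against Med1, shMed1 #2 and shMed1 #4 (labelled Med1 Knockdown), and were otherwise untreated. Each group had 3 libraries, labelled as biological replicates with no account of the cultures behind them, and p-values here reflect the spread among these samples alone, which may be technical. MED1 is a subunit of Mediator, the coactivator complex that joins transcription factors to RNA polymerase II. The peak at an end of Med1 held 2114 ± 41.3 normalized counts in NTC, 2023 ± 143 with #2 and 1971 ± 73.1 with #4 (SD, n = 3), but accessibility cannot show whether Med1 was depleted. Reads worked out from the normalized values came to 34.8 to 53.7 M in peaks per library, and to 162 to 252 in the median peak. In bulk samples, fewer cells with open DNA and less open DNA in each cell cannot be told apart.

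Basement membranes are thin sheets of matrix under epithelia and around vessels, muscle and fat. Laminins, each made of an alpha, a beta and a gamma chain, assemble into a network at the cell surface, where integrins and dystroglycan bind them. The chains of Col4a1 and Col4a2 wind together into collagen IV, which forms a second, covalently crosslinked network, and nidogens bind both networks. In the breast, a basement membrane surrounds the ducts, and carcinoma cells breach it when they invade.

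Start sites were available from RefSeq (GRCm38.p6) for 6 of the 9 genes, and 4 of these had promoter bases under a peak, with the start itself covered in Col4a1, Col4a2 and Lama5 but not in Lamb1. Their promoters, 250 bases before to 50 bases after the start, are shown because the peaks over them are the members closest to the transcription start. Capitals mark GC boxes (GGGCGG, or CCGCCC on the other strand) and CCAAT boxes (CCAAT or ATTGG).
Col4a1, chr8:11312777-11313076, minus strand: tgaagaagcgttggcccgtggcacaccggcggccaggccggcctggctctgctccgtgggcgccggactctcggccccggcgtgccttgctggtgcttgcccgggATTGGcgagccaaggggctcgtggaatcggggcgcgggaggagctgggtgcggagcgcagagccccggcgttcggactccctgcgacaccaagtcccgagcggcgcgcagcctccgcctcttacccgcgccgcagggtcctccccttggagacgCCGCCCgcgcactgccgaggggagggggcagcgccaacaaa
Col4a2, chr8:11312555-11312854, plus strand: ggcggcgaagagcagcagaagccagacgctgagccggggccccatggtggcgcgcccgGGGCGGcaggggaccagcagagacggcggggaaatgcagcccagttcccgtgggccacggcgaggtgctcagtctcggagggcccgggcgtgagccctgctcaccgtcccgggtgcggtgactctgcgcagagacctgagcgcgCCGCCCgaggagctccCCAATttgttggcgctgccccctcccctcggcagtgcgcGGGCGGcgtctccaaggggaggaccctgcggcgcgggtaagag
Lama5, chr2:180225810-180226109, minus strand: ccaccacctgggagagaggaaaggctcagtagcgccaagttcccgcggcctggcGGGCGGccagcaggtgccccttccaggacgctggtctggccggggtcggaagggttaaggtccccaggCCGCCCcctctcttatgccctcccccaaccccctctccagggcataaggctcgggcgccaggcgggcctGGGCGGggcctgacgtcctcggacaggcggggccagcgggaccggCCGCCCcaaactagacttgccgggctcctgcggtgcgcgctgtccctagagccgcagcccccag
Lamb1, chr12:31265043-31265342, plus strand: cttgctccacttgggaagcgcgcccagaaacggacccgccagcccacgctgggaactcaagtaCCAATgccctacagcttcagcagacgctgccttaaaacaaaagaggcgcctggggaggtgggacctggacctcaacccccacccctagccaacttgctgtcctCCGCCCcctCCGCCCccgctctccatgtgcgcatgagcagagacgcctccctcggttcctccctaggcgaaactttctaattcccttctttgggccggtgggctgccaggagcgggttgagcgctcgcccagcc
Col4a1 and Col4a2 are transcribed from opposite strands, from starts 21 bases apart with overlapping first bases, and their 2 promoter windows share 78 bases. The Col4a1 promoter held 1 GC box and 1 CCAAT box, and that of Col4a2 held 3 GC boxes and 1 CCAAT box. In the overlap, the same letters are read on opposite strands and can hold the same match. Lama5 had 4 GC boxes and no CCAAT box, while Lamb1 had 2 GC boxes and 1 CCAAT box. Of 32851 mouse promoters of the same length, 35.7% held a GC box and 37.4% a CCAAT box. Neither an AP-1 site (TGANTCA, held by 7.81% of promoters) nor a TATA box (TATAAA or TTTATA, 13.6%) was found in these 4 windows or in those of Nid1 and Lamb3. The 4 promoters held 37, 33, 24 and 18 CpG dinucleotides in the order above, against a median of 7 and an upper quartile of 20 over all promoters. The Nid1 promoter held 20, and the 2 listed Lamb3 promoters held 2 and 5, and none of these 3 windows had a base under a peak.

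Accessibility of the 94 peaks in NTC ran from a mean of 26.9 to 3274 normalized counts, with a median of 311, against 208 over all peaks of the table. All 94 passed the filter on low values. Inside the genes lay 66 of them (70.2%, against 46.2% of all peaks), and 20 lay between genes. Within 1 kb of an annotated gene end lay 8 (8.51%, against 16.1%). By the rule every member has a gene, while 10.7% of all peaks had none within 50 kb. These shares therefore do not compare like with like. The 8 gene-end peaks had a median NTC mean of 711, against 1090 over all gene-end peaks, and the 86 others one of 276, against 172 over all peaks away from gene ends. Nid1, Nid2 and Lamb3 had no gene-end peak, and Col4a2 none beyond the one over both collagen starts, which is counted with Col4a1. The strongest NTC means were 3274 at an intergenic Col4a1 peak and 2962 at an intergenic Lama5 peak, while no Nid2 peak exceeded 251. Peak by peak, Lamc1 had the highest median NTC mean (941), followed by Col4a2 (644), Lamb1 (546), Lama5 (390.5), Col4a1 (379), Lama3 (246), Nid2 (171), Nid1 (156) and Lamb3 (142). All peaks have the same length of 501 bases, so these levels are on 1 scale.

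With the Med1 hairpins, more of these peaks gained than lost accessibility. In the mean of both hairpins against NTC, 36 of the 94 were called higher and 11 lower (limma, adjusted p under 0.05 over all 75930 peaks tested), where 22.1% of all peaks were called higher and 17.7% lower. With #2 against NTC, 40 were higher and 13 lower, against 23.6% and 19.5% of all peaks. With #4, 22 were higher and 7 lower, against 17.3% and 12.1%. The members' median log2 fold changes were 0.09, 0.17 and 0.06 in these comparisons, beside -0.01, -0.02 and -0.01 over all peaks. Scaling every library to the same total gave 33 members higher and 19 lower in the mean, 33 and 18 with #2, and 17 and 12 with #4, and no called member changed sign. The members' medians were then 0.01, 0.08 and -0.01, so that with #4 the sign of the median depended on the scaling. Over all peaks, equal totals turned the balance to 12104 higher and 21010 lower in the mean, with medians of -0.09, -0.10 and -0.08. All comparisons against NTC share its 3 libraries.

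By family, collagen IV had the largest share of higher calls in the mean of both hairpins, 19 of 34 peaks, with 4 lower and a median log2 fold change of 0.27 (16 and 6, with 0.19, under equal totals). Over all peaks, 22.1% were higher and 17.7% lower. Among all peaks away from gene ends averaging 500 or more normalized counts, 56.4% were higher and 8.58% lower. Of the collagen IV peaks, 7 of 18 assigned to Col4a1 and 9 of 16 assigned to Col4a2 averaged 500 or more. The families were not tested against each other. The nidogens had 3 higher and 3 lower of 11 peaks, with a median of -0.00 that ran from -0.08 under equal totals to 0.08 under cyclic loess. Of 49 laminin peaks, 14 were higher and 4 lower, with a median of 0.06 that turned to -0.02 (14 and 9) under equal totals. Between the hairpins, 23 of the 94 members were lower in #4 than in #2 and 7 higher, against 13% and 8.48% of all peaks. Collagen IV peaks made up 13 of those 23, and laminin peaks 9.

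**Figure D1:**
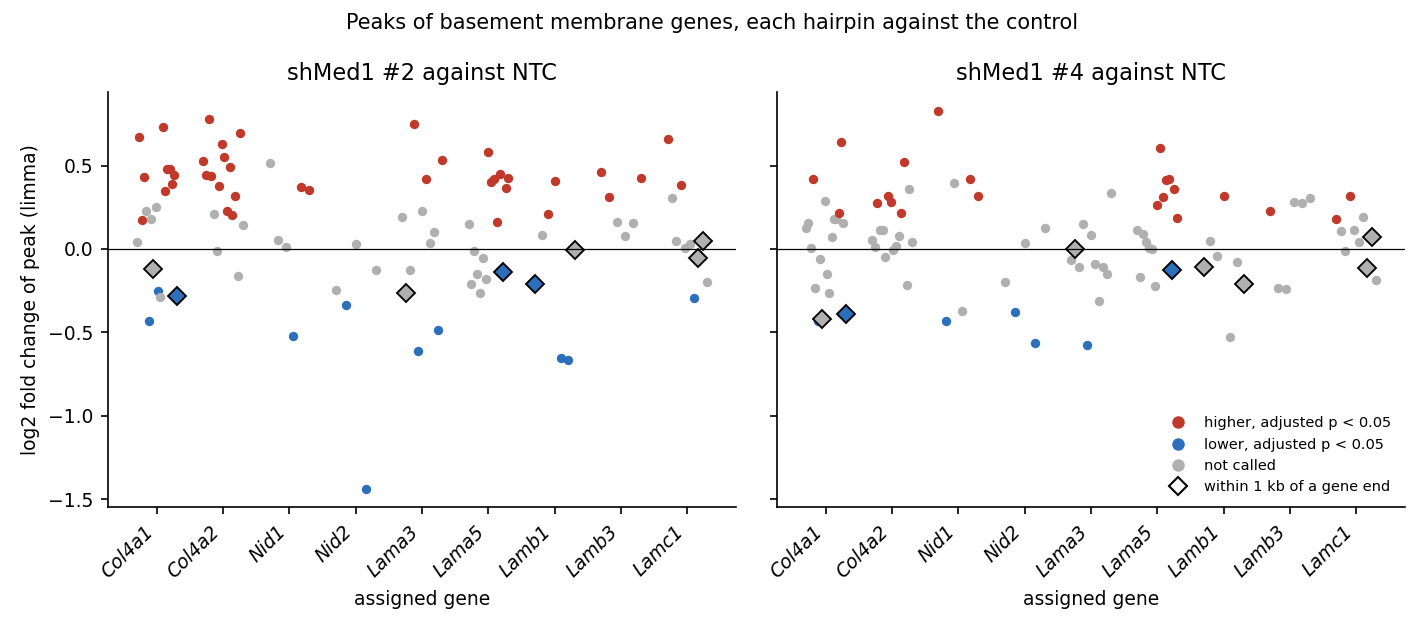
Log2 fold change (limma) of each of the 94 peaks, grouped on the x axis by assigned gene, for shMed1 #2 (left) and shMed1 #4 (right) against NTC. Red points were called higher, blue lower and grey neither, and diamonds are the 8 peaks within 1 kb of a gene end. No diamond is red, and Col4a2 has 12 red points on the left and 5 on the right.

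Summed over the peaks of a gene, normalized counts of Col4a2 were 12444 ± 223 in NTC, 15956 ± 277 with #2 and 13910 ± 425 with #4 (SD, n = 3), ratios of 1.28 and 1.12 to NTC. Col4a1 stood at 1.24 and 1.14 times NTC, and Lamb3 at 1.32 and 1.14. Nid1 stood at 1.17 and 1.18 times NTC, and Lama5 at 1.20 in both. Lama3 was at 1.18 times NTC with #2 and at 0.977 with #4, where its libraries overlapped those of NTC. Lamb1 stood at 1.09 and 1.05 times NTC and Lamc1 at 1.09 and 1.06, and Nid2 alone was below it in both, at 0.824 and 0.886. Summed over all peaks, libraries held 41.2 to 41.5 M normalized counts in NTC, 43.4 to 44.2 M with #2 and 43.1 to 43.6 M with #4. The whole table thus rose too, and the ratios of single genes include this rise. The sums per gene were not tested, and stronger peaks weigh more in them.

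No peak at a gene end was called higher. None of the 8 was so in any comparison, where 14.4% of all gene-end peaks were higher and 32.7% lower in the mean of both hairpins. There, 2 of the 8 were lower (the collagen start and the Lama5 start). A negative log2 fold change was found at 7 of the 8, and at 7867 of all 12225 gene-end peaks. Equal totals gave 4 of 8 lower, beside 977 higher and 5986 lower of 12225 gene-end peaks in all, in place of 1755 and 3992. With #2, 3 of 8 were lower (background 35.4% lower, 12% higher), with #4, 2 (22.5% and 14.3%), and none differed between the hairpins, where 11.5% of all gene-end peaks were higher and 3.7% lower in #4.

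The peak over both collagen starts (chromosome 8, 11312434 to 11312935) covered all 300 bases of the Col4a2 promoter and 159 of the Col4a1 promoter printed above. It held 791, 772 and 890.3 normalized counts in NTC, 787, 578 and 668 with #2, and 584, 629 and 657 with #4. All #4 libraries lay below all NTC libraries, and 1 #2 library lay among them. It changed by -0.34 ± 0.07 in the mean of both hairpins on the log2 scale (limma SE, adjusted p = 0.000142), -0.28 ± 0.08 with #2 (0.00467) and -0.39 ± 0.08 with #4 (0.000203). The #2 call was lost without NTC replicate 3 (-0.22, adjusted p = 0.0605, limma) and without #2 replicate 2 (-0.17, 0.112), but not the other calls. Among 12223 gene-end peaks of other genes, those of Polr1e, Fam167a and Ube2g1 had the most similar log2 values, with Pearson's r of 0.980, 0.972 and 0.967 over the same 9 libraries, which share group differences and depth.

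For Col4a1, 8 of 18 peaks were higher and 4 lower in the mean of both hairpins, beside 22.1% and 17.7% of all peaks. The gene's far end showed a weak peak (chromosome 8, 11197792 to 11198293) with no call. The strongest member of all, an intergenic peak 24.9 kb beyond that far end (chromosome 8, 11173310 to 11173811), held 3553, 3134 and 3133 normalized counts in NTC, 4127, 4439.8 and 4657 with #2, and 4535, 4427 and 4151 with #4. Every hairpin library was above every NTC library, and the hairpins overlapped. The log2 change here was 0.42 ± 0.04 in the mean (limma, adjusted p = 1.46e-12), 0.43 with #2 and 0.42 with #4, and their difference was -0.01 ± 0.05. About 14 kb nearer the gene, a weaker intergenic peak (11187417 to 11187918) went the other way, from 201, 228 and 183 in NTC to 150.2, 169 and 132 with #2 and 164, 154 and 134 with #4. The log2 change here was -0.43 ± 0.11 (limma, adjusted p = 0.00205), and it was chosen after its values were seen. The calls of the single hairpins there were lost without NTC replicate 2 (-0.35 in each, adjusted p = 0.0669 and 0.0932, limma) and without replicate 3 of the hairpin (-0.34 and -0.35, 0.0568 and 0.0661).

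Within Col4a1, 4 neighbouring peaks about 49 to 54 kb from the start, grouped after their values were seen, rose with #2. The first (chromosome 8, 11258518 to 11259019) held 441, 420.3 and 463 normalized counts in NTC, 801, 739 and 664 with #2, and 436, 502 and 454 with #4. The #2 libraries stood apart from all others, and #4 and NTC overlapped. Limma gave a log2 change of 0.73 ± 0.08 with #2 (adjusted p = 3.86e-10) and 0.07 ± 0.08 with #4 (0.561), and the hairpins differed by -0.66 ± 0.08 (2.01e-08). At the other 3 peaks of the stretch, log2 fold changes with #2 were 0.35, 0.48 and 0.48, all called, and with #4 0.18, 0.18 and 0.22, of which the last was called (limma, adjusted p = 0.0782, 0.063 and 0.00226). The difference between hairpins was called at 2 of these 3 (-0.30 and -0.26, limma, adjusted p = 0.00213 and 0.000328) and not at the other (-0.17 ± 0.08, 0.118).

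A Col4a1 peak 34.5 kb from the start (chromosome 8, 11278062 to 11278563) showed the opposite order of the hairpins. It held 295, 314 and 295 normalized counts in NTC, 422, 372 and 393 with #2, and 459, 477 and 479 with #4. The 3 groups did not overlap, with #4 the highest. The log2 fold change was 0.52 ± 0.08 in the mean (limma, adjusted p = 3.49e-07), 0.39 with #2 and 0.64 with #4. Their difference of 0.25 ± 0.09 (0.034) was lost when #2 replicate 2 or 3 or #4 replicate 2 or 3 was left out (0.21 to 0.25, adjusted p = 0.152, 0.0757, 0.0952 and 0.0911, limma).

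Apart from the peak over both collagen starts, which was called lower and is counted with Col4a1, Col4a2 had no peak called lower against NTC. Of its 16 peaks, 11 were higher in the mean of both hairpins, 12 with #2 and 5 with #4. In the same order, 22.1%, 23.6% and 17.3% of all peaks were higher, and 17.7%, 19.5% and 12.1% lower. In the mean, 1 of the Col4a2 peaks was lower under quantile or cyclic loess scaling and 2 under equal totals. Between the hairpins, 8 of its 16 peaks were lower in #4 than in #2 and 1 was higher, against 13% and 8.48% of all peaks. A peak 27.7 kb from the start (chromosome 8, 11340275 to 11340776) held 638, 629 and 717 normalized counts in NTC, 1166, 1104 and 1129 with #2, and 824, 778 and 797 with #4. The groups did not overlap, and #4 lay between NTC and #2. Log2 fold changes were 0.53 ± 0.06 in the mean (limma, adjusted p = 2.73e-10), 0.78 ± 0.07 with #2 and 0.28 ± 0.07 with #4 (0.00144), and the hairpins differed by -0.50 ± 0.07 (1.08e-07).

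Nearer the Col4a2 start, at 10.3 kb, a peak (chromosome 8, 11322821 to 11323322) held 832, 802 and 821 normalized counts in NTC, 1256, 1086 and 1205 with #2, and 833, 876 and 835 with #4. The #2 libraries were above all others, while the #4 libraries lay above the highest NTC library, the lowest of them barely so. It changed by 0.53 ± 0.07 on the log2 scale with #2 (limma, adjusted p = 3.97e-09) against 0.05 ± 0.07 with #4 (0.593), a difference of -0.48 ± 0.07 (1.62e-07). By contrast, the strongest called Col4a2 peak, 69.8 kb from the start (11382332 to 11382833), held 2446, 2432 and 2303 normalized counts in NTC, 3153, 3119 and 3039.6 with #2, and 2985, 2969 and 2989 with #4. Both hairpins lay above NTC, by 0.38 ± 0.04 and 0.32 ± 0.04 on the log2 scale, and differed from each other by -0.06 ± 0.04 (limma, adjusted p = 0.377).

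Toward the far end of Col4a2, 131.5 kb from the start, a weak peak (chromosome 8, 11444085 to 11444586) held 83.3, 53.5 and 77.7 normalized counts in NTC, 114, 129 and 102 with #2, and 94.2, 100.1 and 77.9 with #4. One #4 library lay within the NTC range. Its log2 change of 0.53 ± 0.16 in the mean (limma, adjusted p = 0.0062) was lost without NTC replicate 2 (0.33, 0.138). A strong peak 59.4 kb from the start (11371981 to 11372482), chosen after its values were seen, held 2146 ± 81.6 normalized counts in NTC, 2131 ± 101 with #2 and 2079.5 ± 135 with #4 (SD, n = 3), with a log2 change of -0.03 ± 0.04 (limma, adjusted p = 0.636). It was called lower under equal totals (-0.11, limma, adjusted p = 0.0398), quantile scaling (-0.12, 0.0171) and cyclic loess (-0.13, 0.00943).

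**Figure D2:**
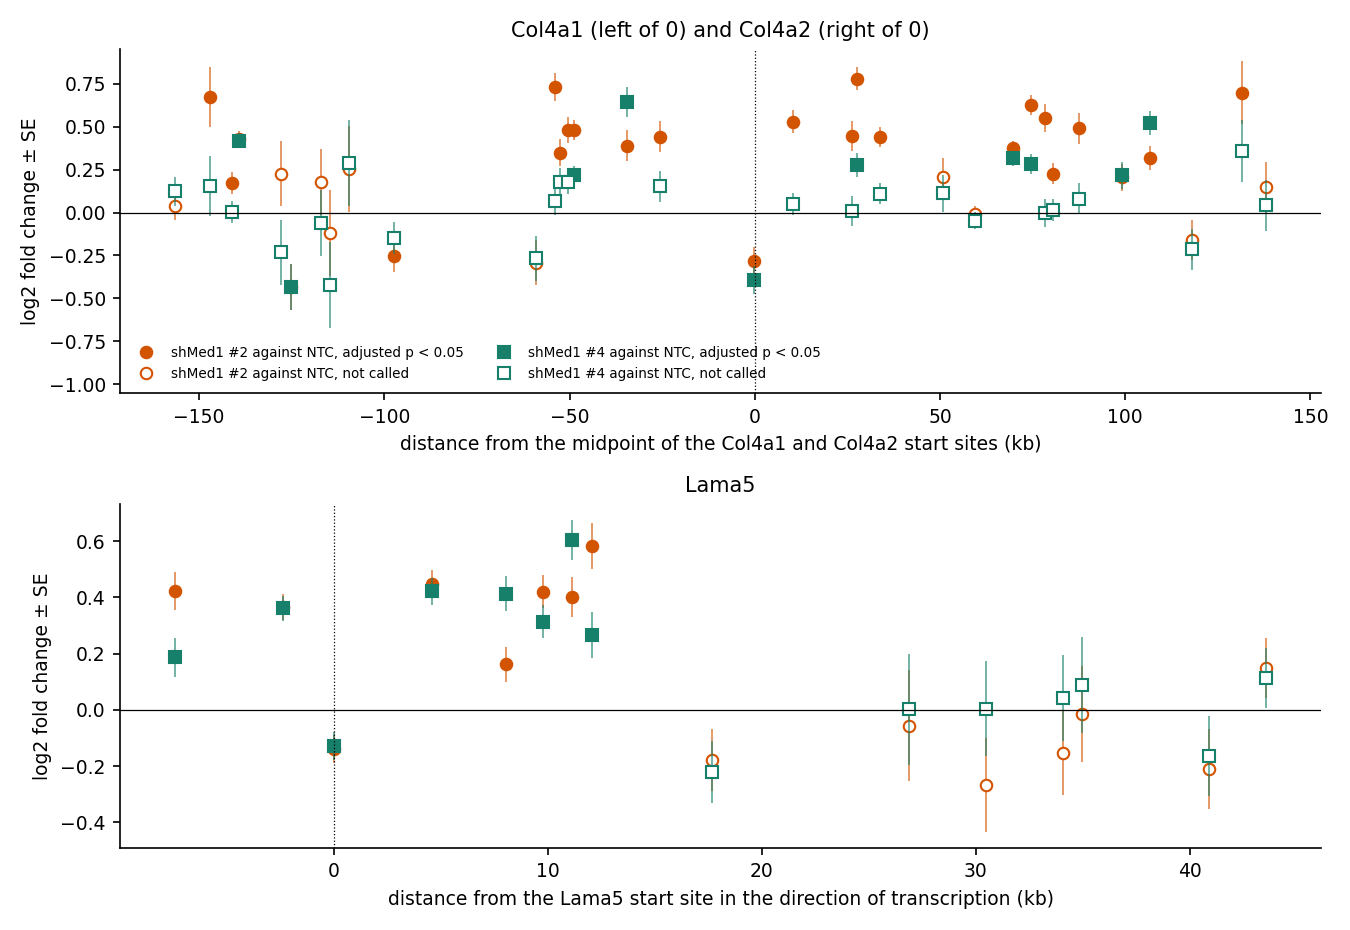
Log2 fold change with its SE for each peak of Col4a1 and Col4a2 (top, distance in kb from the midpoint of their start sites) and of Lama5 (bottom, distance in kb along transcription), for shMed1 #2 (orange circles) and shMed1 #4 (green squares) against NTC, with filled symbols for adjusted p under 0.05. The peak at the start is below 0 at both loci, and the 7 Lama5 peaks within 13 kb around it are above 0 with both hairpins.

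The nidogens, which bridge the laminin and collagen IV networks, had few peaks. Of 6 Nid1 peaks, 3 were higher and 1 lower in the mean of both hairpins, and of 5 Nid2 peaks, none was higher and 2 were lower, where 22.1% of all peaks were higher and 17.7% lower. The 2 genes were not tested against each other, and 1 of the Nid2 calls (19706416, -0.36, limma, adjusted p = 0.0149) was lost without NTC replicate 2 (-0.31, 0.101) or 3 (-0.29, 0.119). Both lower Nid2 peaks (19706416 and 19738366) lay outside the gene (19751257 to 19811787), and only the Nid2 peak at 19803527 lay inside. The Nid1 peak with the smallest adjusted p, 17.1 kb beyond the far end (chromosome 13, 13529141 to 13529642), held 602, 645 and 626 normalized counts in NTC, 804, 749 and 874 with #2, and 832, 852 and 816 with #4. Hairpin libraries were all above NTC and overlapped each other. It changed on the log2 scale by 0.39 ± 0.06 in the mean (limma, adjusted p = 8.21e-07), 0.37 with #2 and 0.42 with #4.

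Also beyond the far end of Nid1, at 4.73 kb, a peak (chromosome 13, 13516752 to 13517253) held 128, 176 and 201 normalized counts in NTC, 112, 99.0 and 136 with #2, and 132, 110.1 and 142 with #4. The lowest NTC library lay within both hairpins' ranges. Limma gave a log2 change of -0.45 ± 0.13 in the mean (adjusted p = 0.00653), -0.52 with #2 (0.00555) and -0.37 with #4 (0.0633). In the mean, significance was lost without NTC replicate 2 (-0.40, adjusted p = 0.052, limma) or 3 (-0.31, 0.133), and the #2 call without NTC replicate 3 (-0.38, 0.0833) or #2 replicate 2 (-0.42, 0.0507), while #4 was called without NTC replicate 1 (-0.56, 0.00912) or #4 replicate 3 (-0.45, 0.0471).

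Of all 94 members, the Nid2 peak 12.6 kb from an annotated end (chromosome 14, 19738366 to 19738867) had the largest fold change with #2. It held 93.1, 86.6 and 116 normalized counts in NTC, 36.0, 47.2 and 26.3 with #2, and 65.6, 76.3 and 56.8 with #4. The groups did not overlap, and #4 lay between the others. The log2 fold change was -1.0 ± 0.19 in the mean (limma, adjusted p = 4.09e-05) and -1.44 ± 0.22 with #2 (7.42e-07), and the hairpins differed by 0.87 ± 0.22 (0.00307).

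With #4 alone the Nid2 change was -0.57 ± 0.22 (limma, adjusted p = 0.0499). This call was lost without NTC replicate 1, 2 or 3 (adjusted p = 0.0805, 0.0665 and 0.24, limma), without #4 replicate 1 or 3 (0.0921 and 0.167), with the replicate number as a block (0.0576), and under quantile (0.0701) and cyclic loess scaling (0.0783), quality weights (0.0596) and a pseudocount of 0.5 (0.0507). Another Nid2 peak centred 0.821 kb away (19737545 to 19738046) held 197, 172 and 159 normalized counts in NTC, 183, 190.0 and 167 with #2, and 158, 181 and 204 with #4. It overlapped fully between groups, with a log2 change of 0.03 ± 0.11 (limma, adjusted p = 0.833).

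Among the laminins, Lama5, the alpha chain of laminins found in most adult epithelial and vascular basement membranes, had 7 of 15 peaks higher and 1 lower in each comparison with NTC. Over all peaks, 17.3% to 23.6% were higher and 12.1% to 19.5% lower in these comparisons. With #2, 6 Lama5 peaks were higher under each of the 3 other scalings. With #4, 6 were higher under quantile and cyclic loess scaling and 5 under equal totals, where 2 were lower in each comparison with NTC. The 7 higher peaks lay from -7.42 to 12.1 kb relative to the start, and they are all the members there other than the start peak itself. Their median log2 fold change was 0.37 in the mean, 0.42 with #2 and 0.36 with #4. None of the 7 peaks more than 13 kb into the gene was called in any comparison, and their log2 fold changes ran from -0.20 to 0.13 in the mean. Under equal totals the one at 17.7 kb (180207914) was called lower in the mean (-0.28, limma, adjusted p = 0.0163), with #2 (-0.26, 0.045) and with #4 (-0.29, 0.0382). This division at 13 kb was made after the values were seen, and its 2 sides were not matched for strength. Of the 15 Lama5 peaks, 7 averaged 500 or more normalized counts, the start peak among them. Of all peaks away from gene ends, 56.4% of those averaging 500 or more were higher in the mean, and 13.6% of weaker ones.

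The Lama5 peak 4.58 kb after the start (chromosome 2, 180221031 to 180221532) held 1587, 1618 and 1587 normalized counts in NTC, 2112, 2174 and 2258 with #2, and 2158, 2176 and 2082 with #4. All hairpin libraries were above all NTC libraries. It rose by 0.43 ± 0.04 on the log2 scale in the mean (limma, adjusted p = 7.95e-12), by 0.45 with #2 and by 0.42 with #4, which differed by -0.03 ± 0.05.

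Further in, at 11.1 kb, a Lama5 peak (chromosome 2, 180214485 to 180214986) held 655, 611 and 607 normalized counts in NTC, 784, 787 and 907 with #2, and 899, 971 and 980.4 with #4. Both hairpins were above NTC, and the #4 libraries reached highest. On the log2 scale it rose by 0.50 ± 0.06 in the mean (limma, adjusted p = 3.28e-09), 0.40 with #2 and 0.60 with #4. The difference of 0.20 ± 0.07 (0.0314) was lost when #2 replicate 1 or 2 or #4 replicate 2 or 3 was left out (0.17 to 0.19, adjusted p = 0.103, 0.146, 0.113 and 0.117, limma).

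Over the Lama5 start, the peak covering 270 of the 300 promoter bases printed above (chromosome 2, 180225578 to 180226079) held 2024, 2056 and 1980.4 normalized counts in NTC, 1914, 1817 and 1774 with #2, and 1905, 1843 and 1795 with #4. Every hairpin library was below every NTC library, though by little. The log2 fold change was -0.13 ± 0.04 in the mean (limma, adjusted p = 0.0118), -0.14 with #2 (0.0221) and -0.13 with #4 (0.0467). Leaving out NTC replicate 2 ended all 3 calls (adjusted p = 0.0784, 0.0928 and 0.162, limma), #2 replicate 2 or 3 that of #2 (0.0671 and 0.0944), and NTC replicate 1 or 3, #2 replicate 2, or #4 replicate 2 or 3 that of #4 (0.0861, 0.0692, 0.0557, 0.11 and 0.155), which was also lost with the replicate number as a block (0.0569).

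Lama3, an alpha chain of the laminin that anchors epithelial hemidesmosomes, had 2 peaks higher and 2 lower of 11 in the mean of both hairpins. With #2, 3 were higher and 2 lower, and with #4, none and 1. Over all peaks, 22.1% were higher and 17.7% lower in the mean, 23.6% and 19.5% with #2, and 17.3% and 12.1% with #4. Deep in the gene, a peak (chromosome 18, 12456491 to 12456992) held 756, 724 and 757 normalized counts in NTC, 1184, 1228 and 1345 with #2, and 791, 805 and 892 with #4. The groups did not overlap, but #4 lay close to NTC. Log2 fold changes were 0.45 ± 0.06 in the mean (limma, adjusted p = 1.25e-08), 0.75 ± 0.07 with #2 and 0.15 ± 0.07 with #4 (0.0809), and the hairpins differed by -0.59 ± 0.07 (1.49e-09).

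Centred 2.66 kb from it, another Lama3 peak (12459152 to 12459653) held 137, 125 and 143 normalized counts in NTC, 97.5, 72.6 and 96.1 with #2, and 94.2, 92.6 and 84.6 with #4. All hairpin libraries were below NTC. It fell by 0.59 ± 0.14 on the log2 scale in the mean (limma, adjusted p = 0.000662), so that 2 neighbouring peaks of this gene changed in opposite directions. At the Lama3 gene end (12333703 to 12334204), NTC held 81.5, 112 and 102 normalized counts, #2 76.4, 88.7 and 78.0, and #4 105, 96.3 and 91.2. These overlapped, with a log2 change of -0.13 ± 0.15 (limma, adjusted p = 0.5).

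Lamb3, the beta chain that pairs with Lama3 in that laminin, had 2 of 6 peaks higher and none lower in the mean. Over all peaks, 22.1% were higher and 17.7% lower. A peak at -3.67 kb relative to the first listed start (chromosome 1, 193298078 to 193298579) held 1488, 1367 and 1415 normalized counts in NTC, 1882, 2047 and 1950.0 with #2, and 1593, 1709 and 1697 with #4. It lay inside the annotated gene (193294353 to 193343878), 3.975 kb from an end, and both listed starts lie further in. The groups did not overlap, with #4 in the middle. It rose by 0.34 ± 0.05 on the log2 scale in the mean (limma, adjusted p = 3.65e-08), 0.46 with #2 and 0.23 with #4 (0.000933), and the hairpins differed by -0.23 ± 0.05 (0.000884).

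At the other side of Lamb3, a peak 1.45 kb inside an end (chromosome 1, 193342181 to 193342682) held 166, 147 and 136 normalized counts in NTC, 186, 219 and 199.5 with #2, and 186, 154 and 219 with #4. One #4 library lay within the NTC range. The log2 fold change was 0.37 ± 0.11 in the mean (limma, adjusted p = 0.00838), and it was lost without NTC replicate 3 (0.30, 0.0766). The other 4 Lamb3 peaks had means under 250 normalized counts in every group and no call in the mean.

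Lamb1 and Lamc1 encode the beta and gamma chains of the most widespread laminins. By the Lamb1 start, the peak covering 211 of the 300 promoter bases printed above (chromosome 12, 31264752 to 31265253) held 616, 593 and 606 normalized counts in NTC, 567, 475 and 529.6 with #2, and 545, 559 and 578 with #4. All hairpin libraries were below NTC, with a log2 change of -0.16 ± 0.07 in the mean (limma, adjusted p = 0.0555) and -0.21 ± 0.08 with #2 (0.0264). The mean was called lower with equal totals (-0.24, adjusted p = 0.00378, limma), quantile scaling (-0.23, 0.0047) and cyclic loess (-0.20, 0.0139), and without #2 replicate 1 (-0.19, 0.018). The #2 call was lost without NTC replicate 1, 2 or 3 (adjusted p = 0.0736, 0.0509 and 0.0656, limma) or #2 replicate 2 (-0.14, 0.194).

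A Lamb1 peak 37.8 kb from the start (chromosome 12, 31302858 to 31303359) held 1065, 837 and 897 normalized counts in NTC, 1161, 1217 and 1327 with #2, and 1154, 1159.9 and 1163 with #4. NTC replicate 1 was nearest the hairpins, which were all higher. It rose by 0.36 ± 0.06 on the log2 scale in the mean (limma, adjusted p = 1.57e-06). A weak peak 47.3 kb from the start (31312329 to 31312830) held 85.1, 82.0 and 86.8 normalized counts in NTC, 57.1, 38.0 and 69.8 with #2, and 56.3, 66.3 and 53.4 with #4. All hairpin libraries were lower there, with a log2 change of -0.59 ± 0.19 (limma, adjusted p = 0.00987). The #2 call (-0.66, 0.0122) was lost without #2 replicate 2 (-0.42, 0.137).

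Lamc1 is the gamma chain shared by most laminins. In the mean of both hairpins, it had 2 of 10 peaks higher and none lower, beside 22.1% and 17.7% of all peaks. Its intergenic peak 14.7 kb from an annotated end (chromosome 1, 153203945 to 153204446) held 949.9, 861 and 899 normalized counts in NTC, 1447, 1371 and 1466 with #2, and 1081, 1039.7 and 955 with #4. The #2 libraries stood apart, and the lowest #4 library was just above the highest NTC library. It changed on the log2 scale by 0.42 ± 0.05 in the mean (limma, adjusted p = 1.18e-08), 0.66 ± 0.06 with #2 and 0.18 ± 0.06 with #4 (0.0237), with a difference of -0.48 ± 0.06 (5.44e-08) between hairpins.

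For #4 the Lamc1 call was lost with equal totals (0.11, adjusted p = 0.156, limma), quantile scaling (0.14, 0.0772) and cyclic loess (0.13, 0.109), and without NTC replicate 2 or 3 (0.141 and 0.0659) or #4 replicate 1 or 2 (0.124 and 0.0813). At the Lamc1 gene end (chromosome 1, 153332484 to 153332985), NTC held 1580.2, 1571 and 1640.2 normalized counts, #2 1628, 1482 and 1504, and #4 1487, 1455 and 1473. The #4 libraries were below NTC, and those of #2 overlapped both. Its log2 change of -0.09 ± 0.05 (limma, adjusted p = 0.139) was called lower with equal totals (-0.16, 0.00319), quantile scaling (-0.14, 0.00811) and cyclic loess (-0.17, 0.0016). A second gene-end peak of Lamc1 centred 0.701 kb away (153333185 to 153333686) had a log2 change of 0.06 ± 0.05 (0.366).

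**Figure D3:**
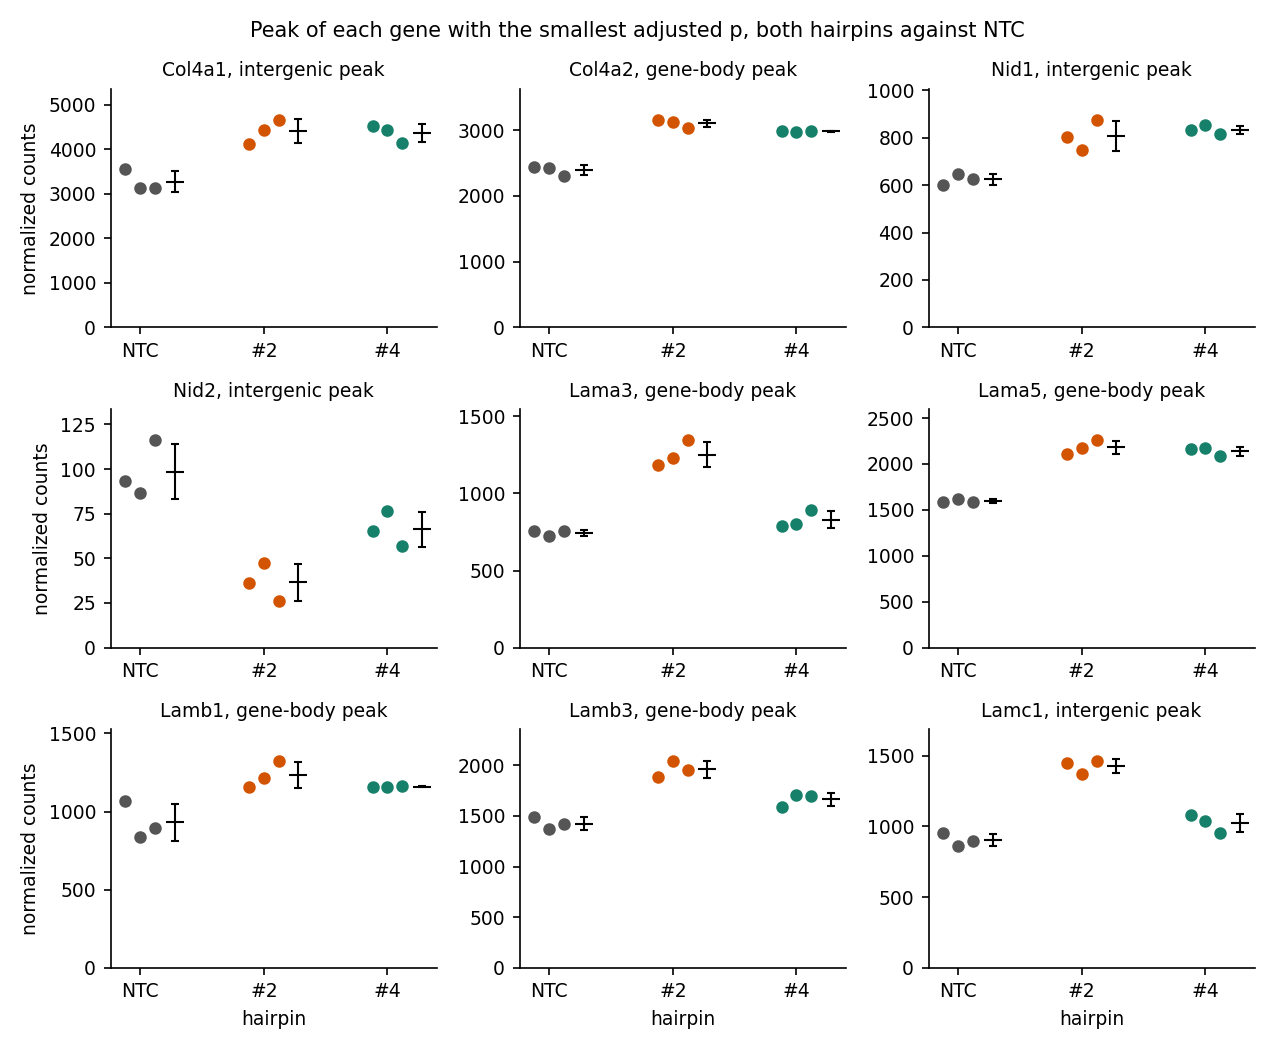
Normalized counts in each of the 3 libraries of NTC, shMed1 #2 and shMed1 #4 (points) and the group mean with its SD (bar to the right), for the peak of each gene with the smallest adjusted p among those described above, in the mean of both hairpins against NTC; each axis starts at 0. The Nid2 peak falls from 93.1, 86.6 and 116 in NTC to 36.0, 47.2 and 26.3 with #2, while the other 8 genes' peaks are higher with #2 than NTC in all 3 libraries.

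Since strong peaks away from gene ends gained accessibility across the whole table, the members were set beside peaks of the same strength. Of 34 members away from gene ends whose 9 libraries averaged 500 or more normalized counts, 24 were higher in the mean of both hairpins and none lower, against 56.4% and 8.58% of all such peaks. With #2, 27 of 34 were higher (57.7% of all such peaks, with 9.25% lower), with #4, 18 of 34 (44.3%, with 7.3% lower), and no member was lower in either. Under equal totals, 23 of the 34 were higher and 2 lower in the mean, beside 6502 and 2400 of 14866 such peaks in place of 8384 and 1275. Between the hairpins, 14 of the 34 were lower in #4 and 3 higher, against 26.7% and 7.85%. Among the 52 weaker members away from gene ends, 12 were higher and 9 lower in the mean, against 13.6% and 16.8%. These counts describe the members and were not tested against the other peaks.

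**Figure D4:**
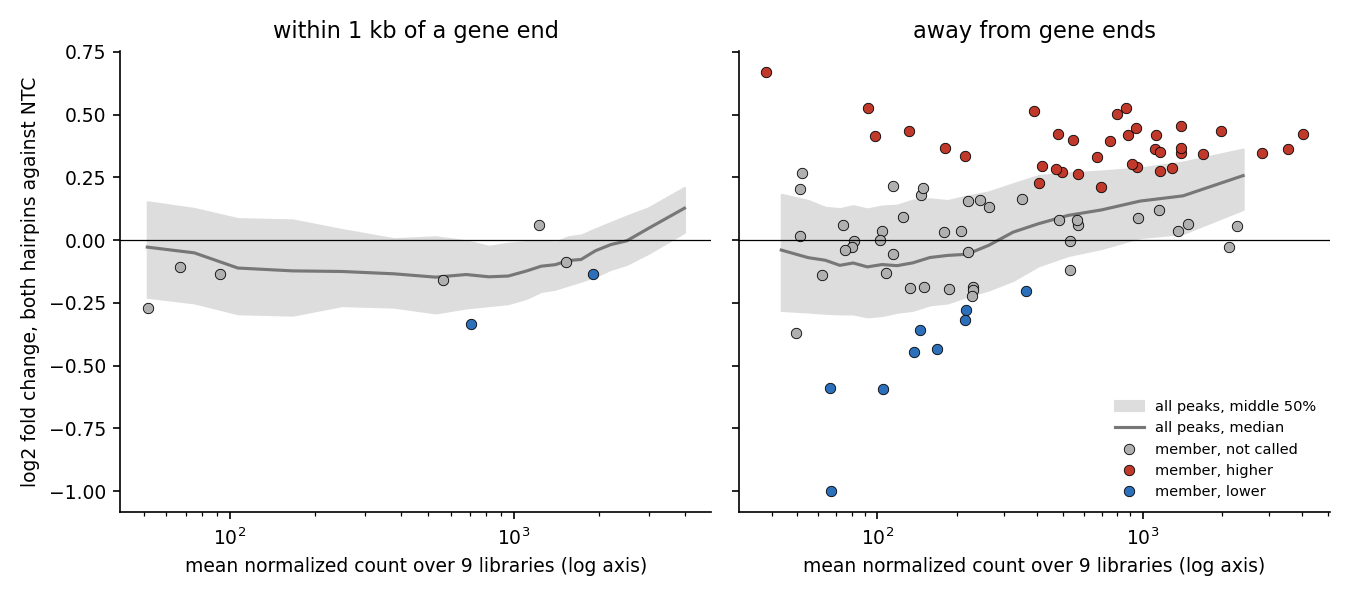
Log2 fold change, both hairpins averaged, against NTC (y axis) by mean normalized count over the 9 libraries (x axis, log scale), for members at gene ends (left) and away from them (right); red points were called higher, blue lower and grey neither. The line is the median and the band the middle 50% of all peaks in strength bins. In the right panel, 24 of the 34 members at 500 or more lie above the median of the bin nearest in strength.

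Other genes of basement membranes and their handling were counted by lists chosen for their function. Of 191 peaks of 25 other basement membrane genes, 60 were higher and 21 lower in the mean of both hairpins, with a median log2 change of 0.05, beside 22.1% and 17.7% of all peaks. Under equal totals the median was -0.03 (47 higher and 31 lower). A peak near Npnt, the integrin ligand nephronectin, rose by 0.49 ± 0.04 on the log2 scale (limma, adjusted p = 5.85e-16), and one near Sparc, a collagen-binding matricellular protein, had a log2 change of -0.57 ± 0.11 (2.09e-05). For laminin and collagen receptors, 43 of 110 peaks were higher and 14 lower (median 0.08, and 0.01 with 35 and 21 under equal totals), among them a higher peak in the collagen receptor gene Ddr1 (0.35 ± 0.04, limma, adjusted p = 1.24e-11) and a lower gene-end peak of the syndecan Sdc4 (-0.18 ± 0.04, 0.000218).

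For folding, secretion and crosslinking of collagen IV, 11 of 62 peaks were higher and 16 lower, beside 22.1% and 17.7% of all peaks and, at gene ends, 14.4% and 32.7% (median -0.10, and -0.18 with 10 and 23 under equal totals). A Plod2 peak, at a lysyl hydroxylase gene, rose by 0.45 ± 0.06 on the log2 scale (limma, adjusted p = 1.42e-07), and the gene-end peak of Sec13, a coat protein of vesicles leaving the endoplasmic reticulum, had a log2 change of -0.47 ± 0.08 (1.69e-06). Peaks of matrix proteases and their inhibitors were higher in 24 of 59 cases and lower in 4 (median 0.12, and 0.04 with 19 and 13 under equal totals). At the gene end of Timp3, a metalloprotease inhibitor held in the matrix, normalized counts were 639 ± 46.2 in NTC, 386 ± 41.1 with #2 and 687 ± 42.6 with #4 (SD, n = 3). The hairpins differed there by 0.83 ± 0.08 on the log2 scale (limma, adjusted p = 5.64e-11).

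Markers were checked by their gene-end peaks in NTC. Of 10 mammary epithelial and carcinoma genes, only Krt14 and Krt18 had one, at a median of 116 normalized counts, and the 43 peaks of the list were higher in 8 cases and lower in 10 in the mean of both hairpins. Of 6 mesenchymal genes, 5 had one (Fn1, S100a4, Twist1, Vim and Zeb1), at a median of 1819, and 4 of 53 peaks were higher and 14 lower. Endothelial cells and fat cells also make basement membrane: of 6 endothelial genes, only Cdh5 had a gene-end peak (median 89.3), with 5 of 28 peaks higher and none lower, and of 4 fat genes, only Cfd (454), with none of 8 higher and 4 lower. Blood markers had gene-end peaks at 4 of 6 genes (median 132), with 4 of 20 peaks higher and 3 lower. Over all peaks, 22.1% were higher and 17.7% lower. Under equal totals, 5 mammary list peaks were higher and 12 lower, and 4 and 20 of the mesenchymal list. The endothelial list then had 5 higher and 2 lower, the fat list 0 and 4, and the blood list 3 and 5. The part of any of these cell types in the members' values was not tested.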

How the data were processed

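The submitters' processing notes name Trim Galore, BWA, MACS2 and featureCounts (Subread) and the build mm10 (GRCm38); versions, duplicate removal and any transposase offset are not given in these sources. The authors deposited a signal per peak, which the file names as DESeq2-normalized counts, so values are relative to a size factor per library. Column names sit a cell away from their values, and this shift was undone. Whether coordinates start at 0 or 1 is not stated.

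Values were taken as log2(value + 1) and fitted with limma 3.58.1 (trend; R 4.3.3) in all 9 libraries, keeping peaks whose mean was 10 or more, with a mean per group and 4 contrasts: the mean of both hairpins, #2 and #4 against NTC, and #4 against #2. Tests were two-sided, adjusted by Benjamini-Hochberg over all 75930 peaks tested, threshold 0.05; ± beside a log2 fold change is its SE and beside a group mean its SD. The fit was tested on simulated data. Genes, ends and start sites came from RefSeq (GRCm38.p6), with strand known only for genes in its promoter table, so distances are given from the start or from an annotated end. The lists held 103 genes, of which Ctage5 had no match in the annotation. Members, lists and tests were chosen with earlier results of these data known. Each gene's peaks chosen by rule are its strongest gene-end peak and its smallest adjusted p in each direction in the mean of both hairpins. Its largest change there was taken among peaks averaging 50 or more normalized counts. The 5 smallest adjusted p between hairpins complete these 24 peaks, given with values in every library. Other member peaks described singly were chosen after their values were seen, and the rest stand in counts. Alternatives were other pseudocounts, filters, scalings, weights, assignments, voom, the replicate block and leaving out each library.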

Additional observations from a re-analysis of the deposited data

Results flagged for a closer look

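At 9 of the 24 peaks chosen by rule, the change differed between the hairpins by the test of #4 against #2 (limma, adjusted p under 0.05). Of the 24, 5 had been chosen by that test, so the count is no measure of how often the hairpins differed; over all peaks, 8.48% were higher and 13% lower in #4. The log2 difference was negative, with #4 closer to NTC, at the Col4a1 peak 54.1 kb from the start (-0.66), the Col4a2 peaks 10.3 and 27.7 kb from the start (-0.48 and -0.50), the Lama3 peak at 12456491 (-0.59), the Lamb3 peak at 193298078 (-0.23) and the intergenic Lamc1 peak (-0.48). It was positive at the Nid2 peak at 19738366 (0.87), where #4 was again closer to NTC, and at the Col4a1 peak 34.5 kb from the start (0.25) and the Lama5 peak 11.1 kb from the start (0.20), where #4 moved further. These 2 smallest positive differences were lost without single libraries, as given above.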

How the results depend on the processing

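Counts of members called kept within 1.5 times their value under other pseudocounts, filters, quantile and cyclic loess scaling, quality weights, fits of only the groups compared, voom and assignment to the nearest gene end (77 of the 94 members). The exceptions were equal totals, with 19 lower in the mean and 12 lower with #4, and assignment within 10 kb (79 members), with 4 lower with #4; the cause was not tested beyond the smaller member set.

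Leaving out 1 library gave 30 to 37 higher and 6 to 12 lower in the mean of both hairpins, 35 to 41 and 5 to 14 with #2, 17 to 24 and 3 to 7 with #4, and 3 to 7 higher and 20 to 23 lower in #4 against #2. The lower counts moved by over 1.5 times without NTC replicate 2 (7 in the mean, 7 with #2, 3 with #4) or 3 (6, 7 and 3), without #2 replicate 2 (5 with #2) and without #4 replicate 3 (4 with #4). The higher count in #4 against #2 did so without #2 replicate 1 (4) or 2 (3) and #4 replicate 2 (4) or 3 (3).

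Deviations of same-numbered libraries of different groups correlated at -0.08 to 0.03, and those of others at -0.04 to 0.08. These values are over all peaks tested. They cannot show whether same-numbered libraries shared a culture or batch that moved part of the peaks. With the replicate block, 36 members were higher and 11 lower in the mean, 39 and 13 with #2, 22 and 5 with #4, and 7 and 23 between hairpins. Over the 94 members and 4 comparisons, 7116 alternative values kept their side of the threshold, 209 lost a call, 93 gained one and 0 calls reversed. Values without a call could change sign among these 7116, and some did under equal totals. Reads were worked out only for voom and for the depths given above, and no count test by edgeR or DESeq2 was run. Weak members (down to 26.9 normalized counts in NTC) have SEs up to 0.28, so small changes there are not detectable at this depth.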
